A study of Mus musculus with 12 samples.

Results

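Cytosolic ribosomal protein genes encode the proteins of the small and the large subunit of the ribosome outside mitochondria. They were taken here as every mouse gene whose symbol begins with Rpl or Rps followed by a digit, leaving out the S6 kinases (Rps6k). The rule found 92 of 23882 genes. A minimum of 500 calls per library let 61 of them into the tests, among 19826 genes in all. By symbol, 73 of the 92 are core subunit genes (30 of the small subunit, 43 of the large), 12 are paralogs or retrogenes, and 7 carry a pseudogene name or name another protein. Of the 12, 3 (Rpl32l, Rpl37rt and Rps23rg1) were moved to the paralogs after their values were seen. Of the genes tested, 52 are core subunit genes, 7 are paralogs or retrogenes, and the last 2 are Rpl34-ps1 and Rps19bp1. The other 31, of which 21 are core subunit genes, fell under 500 calls in at least 1 library.

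The study measured methylation of cytosines not followed by guanine (mCH) over genes in cortex of C57BL/6 mice by whole-genome bisulfite sequencing. At postnatal day 40 (P40) there were 4 wild-type (WT) libraries and 4 labelled miR29 KO. At 4 months there were 2 WT libraries and 2 labelled Dnmt3a mi5, titled DNMT3AmiR29MUT; neither the meaning of mi5 nor the cells in which an allele acts is given in the labels. The labels do not say which miR-29 genes the KO lacks, and they name no treatment.

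Core subunit genes are short. Each ribosome holds a copy of nearly every core subunit protein, so the genes are active in nearly all cells. Many have intronless copies elsewhere in the genome, most of them silent pseudogenes, a few of them retrogenes with their own transcripts. In brain, mCH is deposited over gene bodies by the DNA methyltransferase DNMT3A, whose transcript is a known target of the miR-29 microRNAs, and builds up in neurons after birth. Genes active in a neuron tend to carry little of it. RNA was not measured here, so the activity of the genes is background and no result.

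The level of a gene is its methylated calls over all its calls, in percent. Over all tested genes pooled, levels ranged from 1.495% to 1.801% in P40 WT, from 2.04% to 2.91% in the KO, from 1.543% to 1.547% in 4-month WT and from 2.742% to 2.743% in mi5. The lowest 1% of genes lay under 0.219% to 0.287%, depending on the library. That percentile served as a background, since conversion rates were not used here. The ribosomal protein genes had 182438 to 220478 calls per library at P40 and 89440 to 117042 at 4 months. Tested ones had a median of 1888 mean calls per library, against 11244 for all tested genes. Coverage of Y-linked genes was low in 1 library of each group. In bulk cortex, a small share of cells with a methylated gene and low methylation in all cells cannot be told apart. As a check of the tissue, pooled gene-body mCH in P40 WT was 0.962% over 7 excitatory neuron markers and 2.07% over 11 glia and vessel markers.

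Promoter windows of 2 copies and of the genes they resemble are shown because the copies, and not the parents, carried mCH above 1%. Each runs from 250 bases before to 50 after the first listed start (RefSeq, GRCm38.p6), 5′ to 3′ on the gene's strand. CG pairs are in capitals. Rps23, a protein of the decoding site of the small subunit, lies at chr13:90922872-90923171 on the plus strand and its copy Rps23rg1 (retrogene 1) at chr8:3567748-3568047 on the plus strand. Rpl39, a small protein of the peptide exit tunnel, lies at chrX:37085173-37085472 on the minus strand and Rpl39l at chr16:10169978-10170277 on the plus strand.
Rps23: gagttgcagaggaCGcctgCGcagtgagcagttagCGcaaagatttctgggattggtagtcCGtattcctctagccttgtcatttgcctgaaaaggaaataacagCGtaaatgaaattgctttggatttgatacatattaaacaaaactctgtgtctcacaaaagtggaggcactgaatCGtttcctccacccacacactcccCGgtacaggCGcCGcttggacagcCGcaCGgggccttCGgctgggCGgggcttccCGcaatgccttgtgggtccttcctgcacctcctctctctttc
Rps23rg1: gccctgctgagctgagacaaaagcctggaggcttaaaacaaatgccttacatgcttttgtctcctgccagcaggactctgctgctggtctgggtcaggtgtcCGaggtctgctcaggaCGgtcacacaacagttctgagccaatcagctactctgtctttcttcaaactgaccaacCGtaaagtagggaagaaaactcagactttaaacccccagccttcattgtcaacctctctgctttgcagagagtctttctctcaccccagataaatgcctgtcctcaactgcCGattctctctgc
Rpl39: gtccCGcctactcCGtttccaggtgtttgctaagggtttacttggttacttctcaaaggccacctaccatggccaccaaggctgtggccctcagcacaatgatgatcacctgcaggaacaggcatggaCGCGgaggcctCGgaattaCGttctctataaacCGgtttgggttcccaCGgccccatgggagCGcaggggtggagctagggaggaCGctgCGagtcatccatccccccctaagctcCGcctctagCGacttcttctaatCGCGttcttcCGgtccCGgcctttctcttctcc
Rpl39l: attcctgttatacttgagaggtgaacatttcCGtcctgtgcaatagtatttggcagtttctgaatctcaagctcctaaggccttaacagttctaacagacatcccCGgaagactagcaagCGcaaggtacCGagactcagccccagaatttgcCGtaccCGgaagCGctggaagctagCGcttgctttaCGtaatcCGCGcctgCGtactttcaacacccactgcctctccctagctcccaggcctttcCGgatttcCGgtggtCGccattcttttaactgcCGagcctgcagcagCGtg

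The windows of Rps23 and Rps23rg1 hold 14 and 4 CG pairs, and those of Rpl39 and Rpl39l 17 each. A promoter was listed for 67 of the 92 symbols. The median was 21 CG pairs (range 8 to 35) over 54 core subunit genes, 13 (range 2 to 42) over 11 paralogs and retrogenes, and 13 over 17877 genes in all. Paralogs near or above 1% mCH in WT had few to intermediate numbers, with 2 in Rpl3l, 3 in Rpl32l, 4 in Rps23rg1, 12 in Rpl37rt, 13 in Rpl10l and 17 in Rpl39l. Those with lower mCH had 9 in Rps27rt, 16 in Rpl7l1, 24 in Rps27l, 30 in Rpl22l1 and 42 in Rpl36al, so the ranges overlapped. The calls of Rps27rt were mostly those of Rps27. Without Rps27rt the ranges overlapped only through Rpl7l1 and Rpl39l. The letters CCGGAAGT, the core of an ETS factor site with 1 CG pair in it, occurred on either strand in 10 core windows (18.5%) and in 5.34% of all windows of this length. The pyrimidine run CTTTCC, as found at starts of ribosomal protein transcripts, occurred on either strand in 25 core windows (46.3%) and in 26.2% of all. Neither motif contains the other, and a match is a description of letters. mCH in these windows was not measured apart from the gene.

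In WT cortex the core subunit genes had little mCH. Pooled over the 73 genes, the 4 P40 WT libraries had 0.509%, 0.402%, 0.405% and 0.419%, and the 2 WT libraries at 4 months had 0.455% and 0.398%. The first P40 library stood above the rest. Its 95% Wilson interval, 0.477% to 0.544%, did not meet that of the second, 0.373% to 0.434%. Such intervals cover counting error only. Core levels were 0.223 to 0.341 of the pooled level of all tested genes of the same P40 WT libraries. By their 4-month WT level, 43 of the 52 tested core genes lay in the lowest decile of all tested genes, under 0.498%, and none lay above the third decile.

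Small subunit genes had 0.477% ± 0.0817 and large subunit genes 0.405% ± 0.0349 in P40 WT (SD, n = 4). The ranges overlapped, but within each of the 8 P40 libraries the pooled small subunit value was the higher. It ran from 0.599% against 0.451% in WT library 1 to 0.432% against 0.410% in WT library 4. The median tested gene of the small subunit was the lower in WT library 4 (0.344% against 0.365%) and KO library 1 (0.459% against 0.473%). It was the higher in the other P40 libraries. At 4 months the pooled small subunit value was the lower in 3 of 4 libraries. Among tested core genes the mean P40 WT level ran from 0.167% in Rpl14 to 0.936% in Rps13, with a median of 0.398%. The lowest 5 were Rpl14, Rpl17, Rpl27, Rps23 and Rpl23, from 0.167% to 0.263%. These are proteins of the large subunit apart from Rps23. Rpl14 had 0.276%, 0.108%, 0.178% and 0.107% in the 4 WT libraries, from 7, 2, 3 and 2 methylated calls. The background there was 0.245%, 0.258%, 0.235% and 0.227%, so Rpl14 lay below it in all but WT library 1. The 21 core genes under 500 calls were at the same low level when pooled, 0.345% ± 0.0459 (SD, n = 4).

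The highest core means rested on single libraries. Rps13, a protein of the small subunit, had 2.50% in WT library 1 and 0.233% to 0.676% in the other 3. Rps24, which contributes to 18S rRNA maturation, had 2.35% in the same library and 0.321% to 0.597% in the others. Over all 12 libraries, 17 of 624 levels of tested core genes exceeded 1%. Of these, 5 were in P40 WT library 1 (Rps13, Rps24, Rpl21, Rpl11 and Rpl6), which gave 268 of the 815 methylated calls of tested core genes there. Another 4 were in P40 WT library 4 (Rps27a, Rpl13a, Rpl31 and Rps25). None was in P40 WT libraries 2 and 3. The KO libraries held 3 such values and the 4-month libraries 5. These genes were named after their values were seen.

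Paralogs and retrogenes were higher. Pooled over 12 genes, the P40 WT libraries had 1.07%, 1.25%, 0.961% and 0.970%, and those at 4 months 0.930% and 0.922%. No library of the core genes reached these values. The group was uneven. Rps23rg1 had 1.46%, 1.91%, 1.43% and 1.45% in P40 WT. Rpl3l, a form of Rpl3 of heart and skeletal muscle, had 1.81%, 1.34%, 1.08% and 1.16%, against a mean of 0.320% ± 0.132 for Rpl3. Rpl39l, a form of Rpl39 best known from testis, had 0.907%, 1.34%, 0.931% and 1.09%, and Rpl39 0.405% ± 0.177 (SD, n = 4). Rpl37rt, a retrotransposed copy of Rpl37, had 0.688%, 1.16%, 1.15% and 0.834%.

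The other paralogs were near the core genes or too thinly covered. Rpl22l1, the close relative of the RNA-binding Rpl22, had 0.353% ± 0.129, and Rpl22 itself 0.565% ± 0.264. Rpl7l1 had 0.559% ± 0.247 and Rpl7 0.380% ± 0.0841. Rps27l, a target of p53, had 0.480% ± 0.220. Under 500 calls, the testis form Rpl10l had 1.26% ± 0.547 and Rpl10 0.269% ± 0.103, while Rpl32l had 1.41% ± 0.285 (SD, n = 4 for each). Rpl36al at 0.468% and Rps4l at 0.308% stayed low beside Rpl36a at 0.231% and Rps4x at 0.268%. Rps27 and Rps27rt had 5467 and 5460 calls over all libraries with 10 methylated in each, and Rpl34 and Rpl34-ps1 had 21176 and 20853 with 93 and 91. Such pairs count mostly the same calls.

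**Figure D1:**
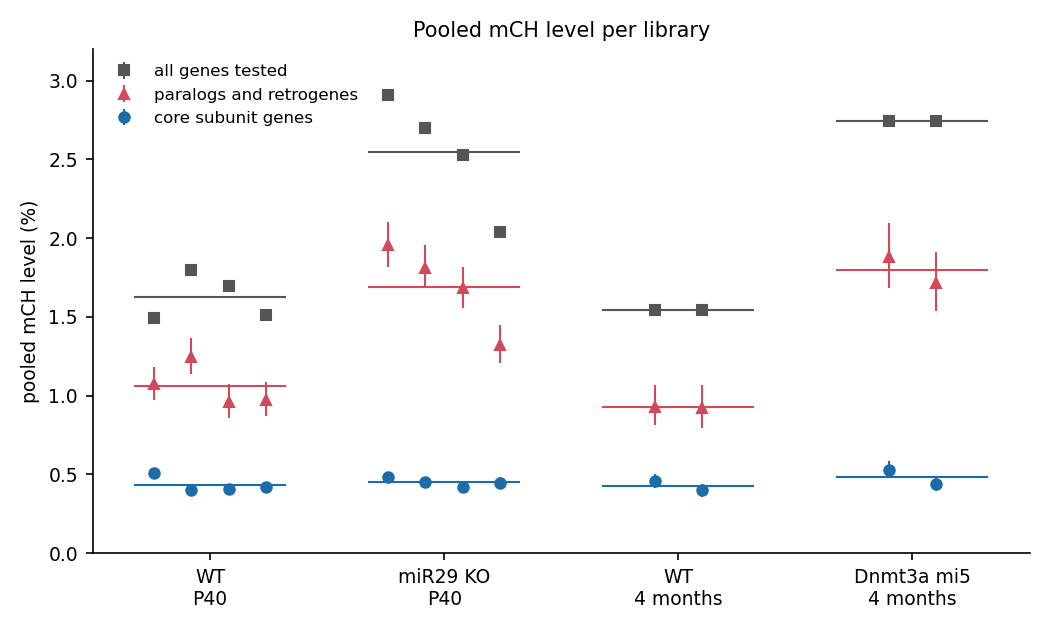
Pooled mCH level (%, y axis) in each of the 12 libraries by group (x axis), for core subunit genes (circles), paralogs and retrogenes (triangles) and all genes tested (squares); vertical bars are 95% Wilson intervals, horizontal lines group means. Core levels stay between 0.398% and 0.527% in all libraries, while the other 2 sets lie higher in both mutants than in their WT.

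The miR29 KO was compared with WT at P40 to ask whether these genes shared the rise in mCH seen over most genes. The core subunit genes, which make up the ribosome, had overlapping pooled levels in the KO and WT. Pooled, the 4 KO libraries had 0.483%, 0.452%, 0.423% and 0.447%, all within the range of the WT libraries, and the means were 0.452% ± 0.0247 and 0.434% ± 0.0509 (SD, n = 4 each). The median tested core gene, which a single high gene moves less, had 0.471%, 0.393%, 0.415% and 0.384% in the KO and 0.365%, 0.347%, 0.369% and 0.365% in WT. By that measure every KO library lay above every WT library. The pooled difference was 0.106 points with Rpl32l, Rpl37rt and Rps23rg1 kept among the core genes. They were set apart after their values were seen. Without them it was 0.0176 points, against 0.918 points over all tested genes. It was 0.0428 points without WT library 1, 0.00694 without WT library 2, 0.00809 without WT library 3, 0.00699 without KO library 1 and 0.027 without KO library 3. Without WT library 1 the lowest KO library (0.423%) lay just above the highest WT library (0.419%). Relative to all tested genes of the same library, core levels were 0.223 to 0.341 in WT and 0.166 to 0.219 in the KO, which did not overlap.

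Paralogs and retrogenes were higher in the KO when pooled. The KO libraries had 1.95%, 1.81%, 1.68% and 1.32%, all above the highest WT library at 1.25%, and the ratio of means was 1.59 against 1.565 for all tested genes. Without the 3 genes moved in after their values were seen, the ratio was 1.43 and the difference 0.354 points, in place of 0.631. All 92 genes together had 0.679% ± 0.0530 in the KO and 0.542% ± 0.0437 in WT (SD, n = 4 each), a ratio of 1.25. KO libraries, from 0.622% to 0.742%, did not overlap with WT, from 0.506% to 0.601%. No test was made on these pooled values, because the genes were chosen with results known.

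Per gene, 3 of 61 rose in the KO past an adjusted p of 0.05 and none fell, where 76.5% of all tested genes rose and 0.0454% fell (quasi-binomial model with Benjamini-Hochberg adjustment, dispersion moderated with limma). The 3 are Rps23rg1, Rpl39l and Rpl3l, and none is a core subunit gene. Rps23rg1 was set apart from the core genes only after its values were seen. Of 52 core genes, 2 (Rps6 and Rps4x) had an unadjusted p under 0.05, where 15533 of all 19826 tested genes did. Both Rps6 and Rps4x rose past the threshold in limma on log2(percent + 0.1). The same limma fit called Rps25 as falling, as did the quasi-binomial fit without WT library 1 (adjusted p = 0.0482). The median log2 odds ratio, the log2 of the ratio of methylated to unmethylated calls in KO over WT, was 0.23 over the 61 genes, 0.13 over the core genes and 0.65 over all. It was positive for 37 of the 61 and for 19008 of all 19826 tested genes. The KO libraries were all above all WT libraries in 4 of the 61, where 57.1% of all tested genes showed this. The fourth is Rpl24 of the large subunit (0.383% ± 0.0530 in WT, 0.486% ± 0.0316 in KO, SD, n = 4 each), which was not past the threshold (log2 odds ratio 0.36, SE 0.34, adjusted p = 0.337 in the quasi-binomial model).

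Rps23rg1 had the smallest p. Its KO libraries had 3.08%, 2.90%, 2.76% and 2.17%, all above the WT libraries, of which the second, at 1.91%, was highest. The log2 odds ratio was 0.83 (SE 0.14, adjusted p = 8e-05, quasi-binomial model). Its parent Rps23 had 0.241% ± 0.305 in WT and 0.319% ± 0.106 in the KO (SD, n = 4 each) with 900 mean calls, and 2 WT libraries had no methylated call. Rpl39l had 2.39%, 2.16%, 2.19% and 1.76% in the KO, a log2 odds ratio of 1.02 (SE 0.21, adjusted p = 0.000238, quasi-binomial model), with no overlap. The X-linked parent Rpl39, under 500 calls, had 0.405% ± 0.177 in WT and 0.286% ± 0.179 in the KO (SD, n = 4 each). Rpl3l had 2.18%, 2.05%, 1.82% and 1.93% in the KO, and its lowest KO library lay just above WT library 1 at 1.81% (log2 odds ratio 0.56, SE 0.18, adjusted p = 0.00912, quasi-binomial model). Rpl3, which reaches towards the peptidyl transferase centre, had 0.320% ± 0.132 and 0.368% ± 0.128.

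Rpl37rt had 1.38%, 1.52%, 1.52% and 0.900% in the KO. The fourth KO library lay within the WT range, and the adjusted p was 0.0663 (log2 odds ratio 0.48, SE 0.23, quasi-binomial model). Without that library it was past the threshold (0.00786), as were Rps19, a protein of small subunit assembly (0.0250), and the X-linked Rps4x (0.0382), which brings the count to 6. The same KO library had the lowest pooled level of all genes. Under 500 calls, Rpl32l had 1.74%, 1.17%, 1.55% and 1.17% in WT and 4.25%, 2.95%, 2.79% and 2.14% in the KO, with no overlap. In the fit with no minimum of calls it rose (log2 odds ratio 1.23, adjusted p = 0.0150, quasi-binomial model). Its parent Rpl32 had 0.318% ± 0.0970 and 0.310% ± 0.296 (SD, n = 4 each).

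Rps6, the small subunit protein phosphorylated by S6 kinases, had 0.214%, 0.218%, 0.375% and 0.569% in WT and 0.348%, 0.845%, 0.708% and 0.728% in the KO. The groups overlapped through WT library 4 and KO library 1. It was not past the threshold (log2 odds ratio 0.94, SE 0.44, adjusted p = 0.0578, quasi-binomial model), but was without WT library 4 (0.0295) or KO library 1 (0.0210). Rps4x had 0.353%, 0.240%, 0.300% and 0.177% in WT and 0.723%, 0.485%, 0.469% and 0.313% in the KO (log2 odds ratio 0.97, SE 0.46, adjusted p = 0.0628, quasi-binomial model). Its lowest KO library overlapped WT. Rps19 had 0.389% ± 0.0619 and 0.614% ± 0.204 (SD, n = 4 each), with an adjusted p of 0.101. The deepest core genes were Rps15a, with 7043 mean calls and 0.598% ± 0.0783 against 0.733% ± 0.0819 (SD, n = 4 each), and Rpl22 with 5536 and no higher value in the KO (0.565% ± 0.264 and 0.537% ± 0.166). Rps2, at 1088 mean calls among the thinnest, had 0.548% and 0.556%.

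**Figure D2:**
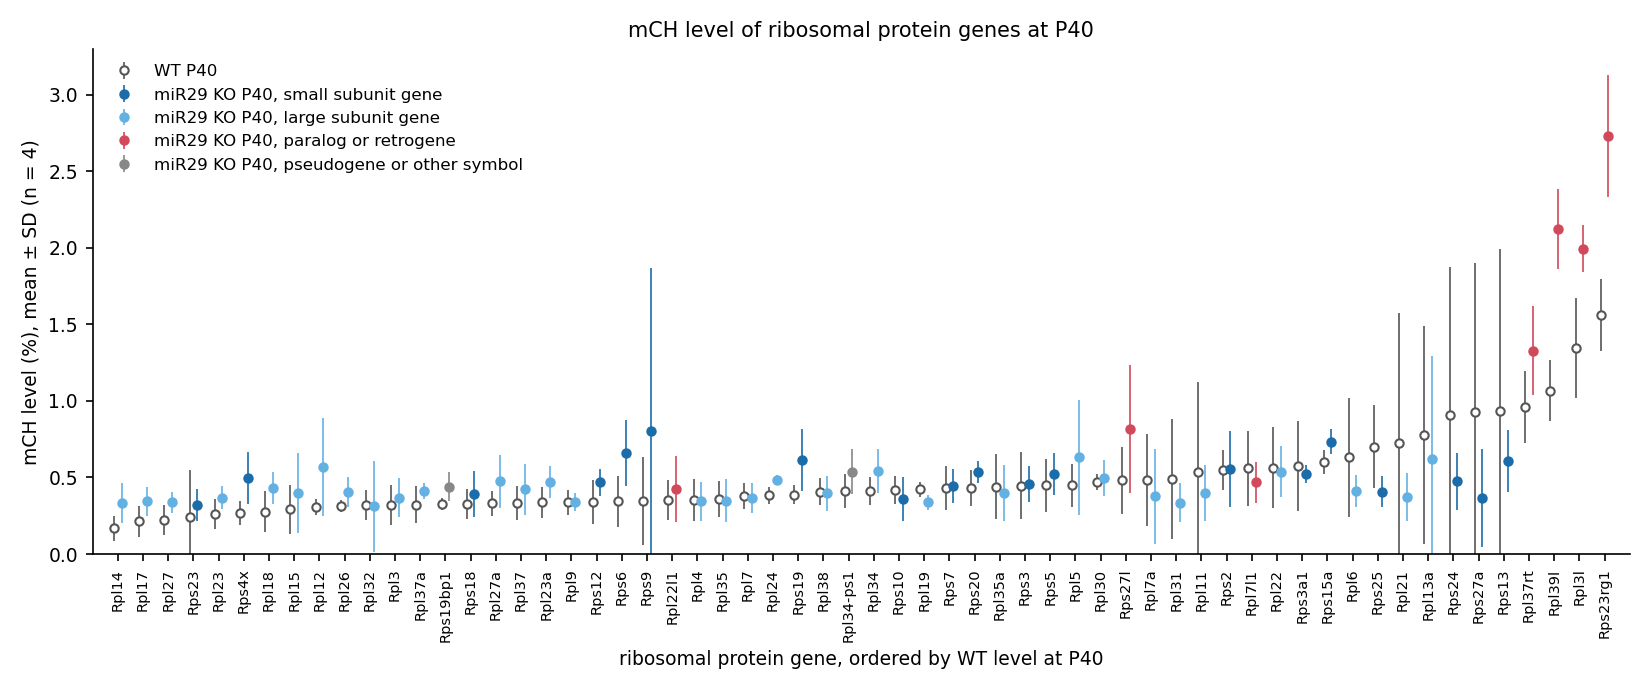
mCH level (%, y axis, mean ± SD, n = 4) of 60 of the 61 tested genes, ordered by WT level at P40 (x axis); open circles are WT and filled circles miR29 KO, coloured by class, with bars that would go below 0 ending there. Rpl37rt, Rpl39l, Rpl3l and Rps23rg1 stand at the right end with higher KO than WT means, and wide bars mark core genes such as Rps13, Rps24 and Rps9 that were high in 1 library.

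A gene can share the common rise and still miss the threshold, so each library was also centred on the median gene. Relative to that shift, 1 of 61 genes (Rps25, of the small subunit) lay lower in the KO past the threshold, where 3.55% of all tested genes did. Rps25 had 0.421%, 0.746%, 0.584% and 1.06% in WT and 0.324%, 0.523%, 0.461% and 0.319% in the KO, with overlap (centred log2 odds ratio -1.55, SE 0.45, adjusted p = 0.0488, quasi-binomial model). This call was lost in 17 of 21 alternative fits. Centred log2 odds ratios were negative for 46 of 52 core genes with a median of -0.55, and for 4 of 7 paralogs and retrogenes with a median of -0.13. Over all tested genes they were negative for 11425 of 19826, with a median of -0.03. Before centring, the median SE of the core genes was 0.46, and that of the deepest, Rps15a, was 0.22.

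Log2 odds ratios of core genes were also set beside those of all genes at a like level. To keep the grouping apart from the tested libraries, genes were ranked by the WT level of the other age, for P40 that of 4 months. In the lowest decile, which holds 46 of the 61 genes, the median log2 odds ratio at P40 was 0.24 over all genes and 0.16 over 43 core genes, and 11.1% of all genes rose. In the second decile it was 0.44 over all genes and -0.04 over 6 core genes, and in the third 0.56 and 0.30 over 3 core genes. For the 4-month comparison, ranked by P40 WT level, the lowest decile had 0.33 over all genes and 0.17 over 39 core genes. The core median was the lower one in each of these deciles. Depth moved with the calls as well. Ranked by calls, 41 of the 61 genes lay in the lowest decile, in which 39.8% of all genes rose with a median of 0.56, while the 37 core genes there had 0.10. The part of level and depth in the difference between core genes and all genes was not tested.

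**Figure D3:**
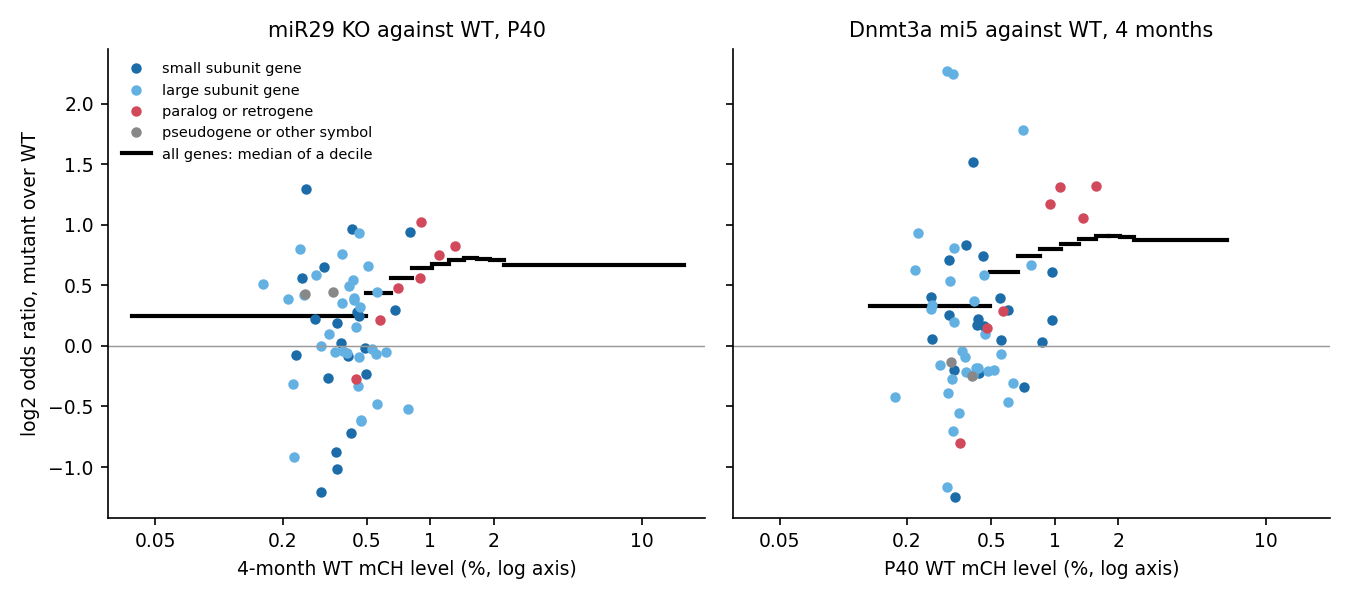
Log2 odds ratio of mutant over WT (y axis) against the WT level at the other age (%, log x axis) for the 61 tested genes, coloured by class, with black lines for the median of each decile of all tested genes. Most core genes lie in the first decile, where the median of all genes is low (0.24 at P40, 0.33 at 4 months), and the paralogs and retrogenes above 0.8% lie near the higher medians at P40 and above them at 4 months.

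The second comparison was Dnmt3a mi5 against WT at 4 months, with 2 libraries in each group. Core subunit genes again had low levels in all 4 libraries. Pooled, WT had 0.455% and 0.398% and mi5 0.527% and 0.438%, which overlap. The median tested core gene had 0.428% and 0.373% in WT and 0.492% and 0.444% in mi5, without overlap. The pooled difference was 0.184 points with Rpl32l, Rpl37rt and Rps23rg1 kept among the core genes. Without them it was 0.0557 points, against 1.198 points over all tested genes. This core difference ran from 0.0116 points without mi5 library 1 to 0.0999 without mi5 library 2. It was 0.0842 without WT library 1 and 0.0273 without WT library 2. Between the 2 libraries with Y-gene coverage it was -0.0169 points, and between the 2 without it 0.128 points. Relative to all genes of the same library, core levels were 0.258 and 0.294 in WT and 0.160 and 0.192 in mi5. Paralogs and retrogenes had 0.930% and 0.922% in WT and 1.88% and 1.72% in mi5, a ratio of 1.94 against 1.78 for all tested genes. Without the 3 genes moved in after their values were seen, the ratio was 1.65, below that of all tested genes, and the difference 0.481 points, in place of 0.872. All 92 genes together had 0.520% ± 0.0385 in WT and 0.734% ± 0.0691 in mi5 (SD, n = 2 each), without overlap.

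Of 61 genes, 5 rose past the threshold and none fell, where 58.8% of all tested genes rose and 0% fell (quasi-binomial model with Benjamini-Hochberg adjustment). They are Rps23rg1, Rpl39l, Rpl3l, Rpl37rt and Rpl37a, the last a core gene of the large subunit. Rps23rg1 and Rpl37rt were set apart from the core genes only after their values were seen. No other member had an unadjusted p under 0.05, where 12857 of all 19826 tested genes did. limma on log2(percent + 0.1) called 8 as rising and Rps6 as falling. The median log2 odds ratio was 0.17 over the 61 genes, 0.13 over the core genes and 0.83 over all, with a median SE of 0.86, 0.89 and 0.31. Both mi5 libraries lay above both WT libraries in 19 of the 61, where 86.2% of all tested genes showed this, and below both in 3, where 1.03% of all tested genes did. After centring, no gene of the 61 lay below the common shift past the threshold, where 0.0353% of all tested genes did. Centred values were negative for 47 of 52 core genes and for 11314 of all 19826 tested genes. The count of 5 fell to 1 without WT library 1, to 2 without WT library 2 and to 3 without either mi5 library.

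Rps23rg1 had 1.30% and 1.31% in WT and 3.36% and 3.04% in mi5 (log2 odds ratio 1.32, SE 0.29, adjusted p = 0.003, quasi-binomial model). It is the gene called whichever library was left out. Rpl39l had 0.788% and 1.05% in WT and 2.16% and 2.30% in mi5 (log2 odds ratio 1.32, SE 0.38, adjusted p = 0.00777, quasi-binomial model), and lost its call without WT library 1 (0.0919). Rpl3l had 0.724% and 1.06% in WT and 1.67% and 1.98% in mi5, and Rpl37rt 0.636% and 0.778% against 1.47% and 1.65%. Their adjusted p-values were 0.0243 and 0.0421, and both were lost without either WT library or without mi5 library 2; Rpl37rt was also lost without mi5 library 1. With the transcript with the fewest calls, Rpl3l and Rpl37rt also lost their calls (adjusted p = 0.322 and 0.0884, quasi-binomial model). In all 4 genes the groups were apart, and the parents Rpl3 (0.442% and 0.502%) and Rps23 (0.280% and 0.306%) had group means within 0.1 point. Rpl37 had 0.454% and 0.286%, with overlap, and Rpl39, under 500 calls, 0.472% and 0.393%.

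Rpl37a, a zinc-binding protein of the large subunit, had 0.104% and 0.326% in WT and 1.13% and 0.917% in mi5. The log2 odds ratio was 2.28 (SE 0.94, adjusted p = 0.0438, quasi-binomial model), and the call was lost in 10 of 21 alternative fits, including those without each 4-month library. At P40 the same gene had 0.322% ± 0.122 in WT and 0.410% ± 0.0530 in the KO (SD, n = 4 each). Rpl23a had 0.141% and 0.189% in WT and 1.41% and 0.203% in mi5, so its log2 odds ratio of 2.25 (SE 1.09) came from 1 library. Rps6 went the other way, with 0.623% and 1.01% in WT and 0.371% and 0.315% in mi5 (log2 odds ratio -1.24, SE 0.91, adjusted p = 0.236, quasi-binomial model), and both mi5 libraries lay below both WT libraries.

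**Figure D4:**
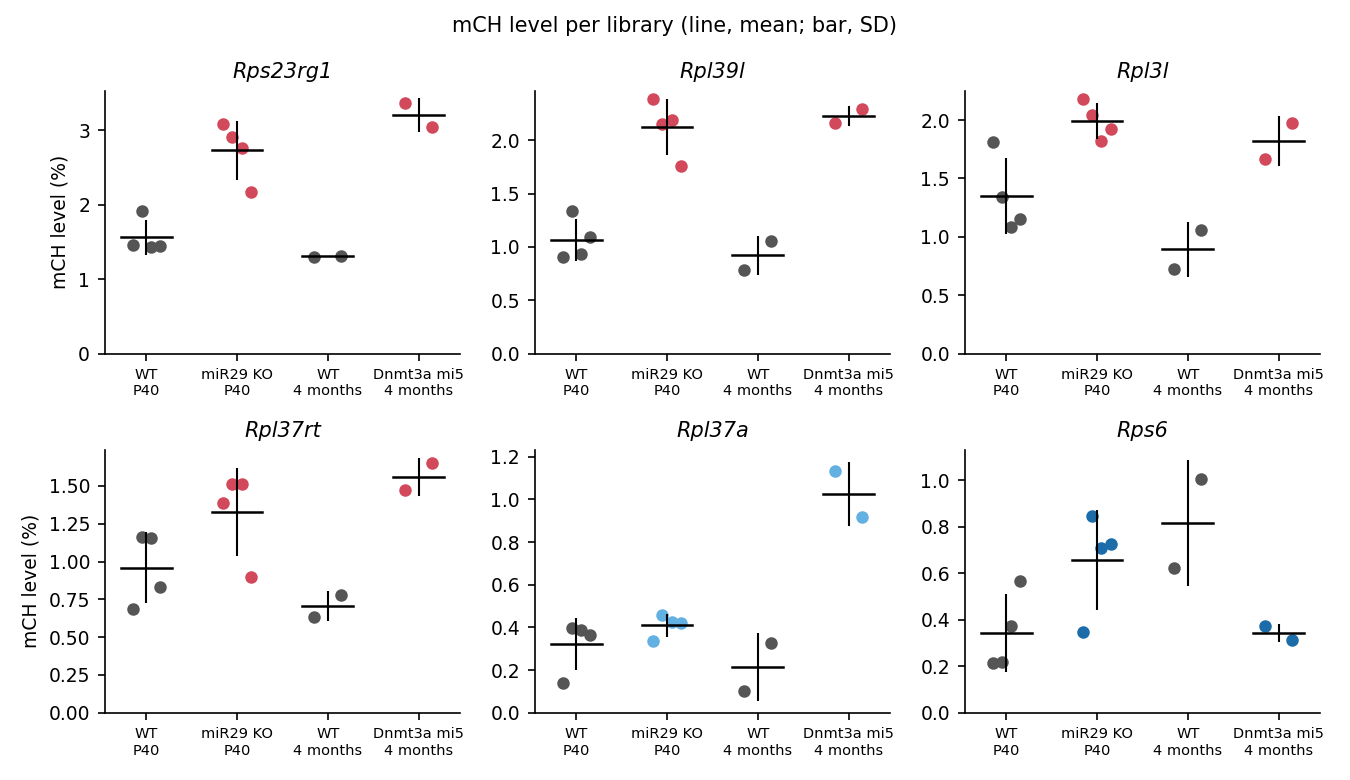
mCH level (%, y axis, starting at 0) in each library of the 4 groups (x axis) for Rps23rg1, Rpl39l, Rpl3l, Rpl37rt, Rpl37a and Rps6; points are libraries, horizontal lines means and vertical bars SD. WT and mutant libraries are apart at both ages in Rps23rg1, Rpl39l and Rpl3l, Rpl37a is apart at 4 months, and Rps6 is higher on average in the KO at P40 and lower in mi5 at 4 months.

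The changes in the 2 mutants were compared directly, each against its own WT libraries. No gene of the 61 differed between them, and 0% of all tested genes did (quasi-binomial model with Benjamini-Hochberg adjustment). In that model 1 of the 61, Rps6, had an unadjusted p under 0.05, as did 289 of all 19826 tested genes. None of the 61 was called in 21 alternative fits, limma included. For Rps6 the mi5 change minus the KO change was -2.18 on the log2 odds ratio scale (SE 1.01, adjusted p = 0.998). For Rps23rg1 it was 0.49 (SE 0.32) and for Rpl37a 1.89 (SE 1.05). The median SE of 0.98 over the 61 genes leaves differences of a few fold undetectable. WT cortex at 4 months was also set against WT at P40. No gene of the 61 differed, where 0.131% of all tested genes were higher at 4 months. Again only Rps6 of the 61 had an unadjusted p under 0.05 (log2 odds ratio 1.26, SE 0.58, adjusted p = 0.9998, quasi-binomial model). Over all 19826 tested genes 462 did. Both comparisons use the same 2 WT libraries at 4 months. Pooled core levels were 0.434% ± 0.0509 (SD, n = 4) at P40 and 0.427% ± 0.0403 (SD, n = 2) at 4 months. Age cannot be told apart from the experiment in which the libraries were made.

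**Figure D5:**
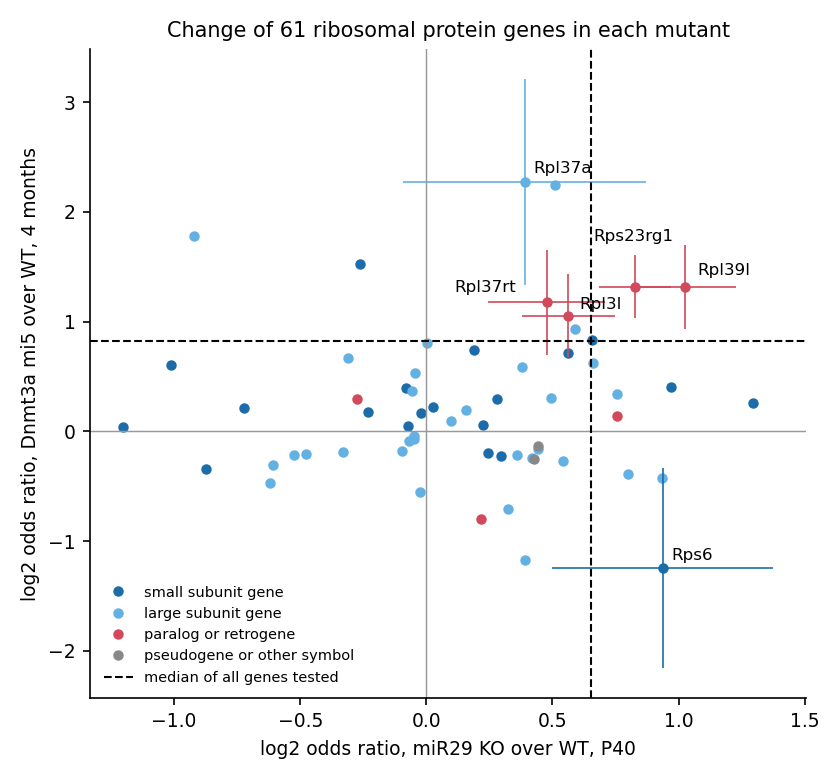
Log2 odds ratio of the miR29 KO at P40 (x axis) against that of Dnmt3a mi5 at 4 months (y axis) for the 61 tested genes, coloured by class; bars are SE for the labelled genes and dashed lines the medians of all tested genes (0.65 and 0.83). Most core genes lie below both medians, the 4 labelled paralogs and retrogenes lie above the 4-month median, and Rps6 lies at the lower right.

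Of 20 genes mutated in Diamond-Blackfan anemia, a failure of red cell formation, 16 were tested. None was called in either mutant, where 76.5% of all tested genes rose at P40 and 58.8% at 4 months. The 16 had median log2 odds ratios of 0.02 at P40 and 0.26 at 4 months, against 0.65 and 0.83 over all tested genes. Their median SEs were 0.47 and 0.85. The 4 X-linked genes (Rpl10, Rpl36a, Rpl39 and Rps4x) pooled to 0.287% ± 0.0466 in P40 WT and 0.431% ± 0.111 in the KO (SD, n = 4 each), and to 0.489% ± 0.0333 in 4-month WT and 0.374% ± 0.107 in mi5 (SD, n = 2 each). Only Rps4x of them was tested. The ribosome genes that the symbol rule leaves out were as low. Rplp0 of the stalk had 0.432% ± 0.228 and 0.439% ± 0.0633, Rpsa 0.289% ± 0.0874 and 0.391% ± 0.0745, and Rack1 0.347% ± 0.0782 and 0.460% ± 0.171 (SD, n = 4 each, WT and KO at P40). Rplp2 had 0.315% and 0.342%, and the thinly covered Rplp1 and Fau had 0.407% and 0.347% in WT. None of the 4 tested genes named here (Rplp0, Rplp2, Rpsa and Rack1) passed in either mutant, beside the same 76.5% and 58.8% of all tested genes.

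Other lists, most of them of the protein synthesis machinery, had more calls per gene. Over all tested genes, 76.5% rose at P40 (median log2 odds ratio 0.65) and 58.8% at 4 months. Of 70 tested mitochondrial ribosomal protein genes, 24 rose at P40 (median log2 odds ratio 0.47, pooled P40 WT level 1.17%) and 12 at 4 months. Of 36 translation factor genes, 8 and 3 rose (median 0.33 at P40, WT level 0.797%). Ribosome biogenesis genes had 10 and 6 of 29 (median 0.40, WT level 0.795%), and the S6 kinases, which are long genes, 8 and 5 of 10 (median 0.61, WT level 1.70%). Of 75 oxidative phosphorylation genes, which are also short and widely expressed, 14 and 7 rose (median 0.30, WT level 0.796%). Median mean calls of the tested genes were 4462, 8215, 6654, 34417 and 4324 in these lists and 1888 in the ribosomal protein genes, and no test was made of differences between lists.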

How the data were processed

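DNA calls, not RNA, were measured in 12 cortex libraries. Per the submitters' processing notes, BSMAP and mm9 were used. The tables the authors deposited give, per RefSeq transcript, the methylated non-CG calls as a count and all calls as an estimated count (35.7% to 62.2% of values whole), which was rounded. The sources used here do not say how totals were derived. Names came from RefSeq (GRCm38.p6): 300 of 36672 rows had none, 1395 rows of repeated identifiers were not used, and each gene was represented by its most covered transcript. Each gene with at least 500 calls in every library was fitted with a quasi-binomial model over all 12 libraries, with 1 mean per group, dispersion moderated by limma 3.58.1 in R 4.3.3 and Benjamini-Hochberg adjustment over 19826 genes. The fit was tested on simulated data. Python 3.11.15 was used for the rest.

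Genes and lists were chosen with earlier results of these data known. Named genes are those past a threshold, those with the smallest p (8 at P40, 5 at 4 months and between mutants), the 5 highest and 5 lowest in WT, the 3 with most and 3 with fewest calls, paralogs with their parents, and Rps6. The labels do not say that replicates are separate animals, so p-values measure the spread between samples. Alternatives covered minimum calls, limma on log2 percent, background subtraction, the replicate block, transcript choice and each library left out. Values of 2 genes are not reported here.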

Additional observations from a re-analysis of the deposited data

Results flagged for a closer look

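In groups of 4, a library was singled out when its gap to the nearest other library, divided by the range of the group, exceeded Dixon's 95% critical value. Among 122 groups of tested ribosomal protein genes, 11 were singled out, 10 of them for a high library (8.2%), and chance gives about 1 in 20 on either side. Over all tested genes a high library was singled out in 949 of 39652 groups (2.39%). In the P40 WT group, Rps24 had 2.35% and Rpl11, a protein that binds MDM2 under ribosomal stress, 1.41% in library 1, where the pooled core level of 0.509% was also far above the other 3 libraries. Library 1 was low for Rpl37a, at 0.139%. Library 4 was high for Rps27a (2.36%), a ubiquitin fusion, for Rpl13a (1.84%) and, at a low level, for Rpl23 (0.408%). Library 2 was high for Rps23rg1 (1.91%), as it was for 375 of all tested genes (1.89%), the most of any P40 library. In the KO, library 4 was high for Rps9 (2.40%) and Rpl13a (1.63%), and library 1 for Rps27l (1.44%) and Rpl4 (0.535%). Rpl13a was thus high in the fourth library of both groups. The causes of these single high values were not tested.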

How the results depend on the processing

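The number of ribosomal protein genes rising at P40 was 3, and 6 by limma on log2(percent + 0.1) and on log2(percent + 0.5). Leaving out libraries gave 3 to 6. At 4 months it was 5, and 8 by limma on log2(percent + 0.1), 3 with the transcript with the fewest calls, and 1 to 5 when libraries were left out. The count below the common shift at P40, 1, was 0 with minimums of 200 or 1000 calls or none, with P40 libraries alone, with the transcript with the fewest calls and by limma on log2(percent + 0.1), 3 by limma on log2(percent + 0.5), and 0 to 2 when libraries were left out. After subtraction of the 1st percentile in percent it was 52 at P40 and 48 at 4 months, and at 4 months 5 by limma on log2(percent + 0.5). The common shift is then that of the median gene in points, which a gene of low level reaches only with a larger fold change. The share of all tested genes below it in that fit is not given here. The counts of 52 and 48 are therefore not read as particular to ribosomal protein genes. Before subtraction, the median gene had 1.21% to 1.44% in P40 WT and 1.63% to 2.39% in the KO. Pooled core levels were 0.402% to 0.509% and 0.423% to 0.483%. Counts for the difference between mutants and between ages were 0 throughout, and a fit on the compared libraries alone was not run for them. The pooled difference of all 92 genes, 0.136 points at P40 and 0.213 at 4 months, became 0.0176 and 0.0557 with core genes only (0.106 and 0.184 if Rpl32l, Rpl37rt and Rps23rg1 are kept among them), 0.0756 and 0.141 as a mean of gene levels, 0.0736 and 0.0764 as a median, and 0.137 at 4 months in libraries with Y-gene coverage; the Y-gene and core settings were chosen after seeing the data. The core difference at 4 months changed sign in libraries with Y-gene coverage (-0.0169 points); no called gene changed direction.

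Correlations of deviations between same-numbered P40 libraries were -0.002, -0.0358, -0.048 and 0.101, within the range of different-numbered ones (-0.126 to 0.197). The labels do not say whether the numbers pair libraries, and such correlations cannot decide it. With a replicate block the counts were 4 at P40 and 4 at 4 months, Rps24 fell at P40 (adjusted p = 0.0157), and 2 genes lay below the common shift. Depth is a limit, with a median of 1828 calls per library in tested core genes.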
